A study of Homo sapiens with 6 samples.

Results

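The genes described here make, move or sense sterols: AACS, HMGCS1, PMVK, IDI1, SQLE, NSDHL, STARD4 and INSIG1. They are 8 of the 14883 genes that carried a symbol on the array, and they were selected on their shBRG1 minus NSC differences in these same 6 samples, so those differences are given as a description without a test. Each of the 8 had 1 probe set, so the rule of keeping the brightest probe set of a gene set none aside. The cells were SK-N-BE(2), an established human neuroblastoma line grown in Iscove's medium with serum and an insulin-containing supplement. One group was infected with a pLKO lentivirus that carries a hairpin against BRG1 (shBRG1, n = 3), and the other with the matching non-silencing control virus (NSC, n = 3). RNA of both groups was taken 48 h after infection, and 200 ng per sample went onto 1 Affymetrix array. BRG1, encoded by SMARCA4, is a motor subunit of SWI/SNF, a complex that moves nucleosomes. The level of SMARCA4 was not analysed here, so the groups stand by their labels.

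Cholesterol is built in the cytosol and the endoplasmic reticulum from acetyl-CoA. The path runs through acetoacetyl-CoA, HMG-CoA, mevalonate and isoprenoid diphosphates to squalene, lanosterol and finally cholesterol, and the isoprenoid diphosphates also feed dolichol, ubiquinone and protein prenylation. When sterols in the endoplasmic reticulum are low, SCAP escorts the transcription factors SREBP1 and SREBP2 to the Golgi for activation, and genes of the path are then transcribed. When sterols are plentiful, INSIG proteins hold SCAP back. HMGCS1, IDI1, SQLE, INSIG1 and STARD4 are textbook targets of this system.

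All 6 arrays had medians between 3.77 and 3.84 on the log2 scale. Of 9 markers of adrenergic neuroblastoma, 8 were measured, and all 8 lay above the median gene (5.09). The summed log2 level of the 8 ranged over 74.26 to 74.48 in shBRG1 and 75.93 to 76.23 in NSC. Of the 8, PHOX2A, HAND2, ISL1, CHGA and CHGB fell in the limma fit (log2 differences of -0.51 to -0.30), and GATA3 (0.21), DBH (0.08) and TH (0.11) did not pass. Of 6 Schwann and glial markers 4 were measured, 1 of them (SOX10) above the median gene, and their sum ranged over 15.20 to 15.63 in shBRG1 and 16.43 to 16.77 in NSC. FOXD3 fell (-0.24), and SOX10 (-0.29), S100B (-0.41) and ERBB3 (-0.15) did not pass. Of 6 fibroblast markers only DCN and LUM were measured, both above the median gene, with sums of 13.87 to 14.23 in shBRG1 and 13.04 to 13.40 in NSC, and both rose (0.44 and 0.39). Over all 14883 named genes that fit called 9.78% higher and 7.19% lower. The sums of the 3 lists did not overlap between the groups, and their part in the results below was not tested. The labels do not say whether the 3 infections of a group were handled as separate cultures, so a p-value here reflects no more than the scatter among 6 arrays, and that scatter may be technical.

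Of the 8 genes, 7 were lower in shBRG1 and PMVK was higher. The largest differences were those of the sterol carrier STARD4 (1.5-fold lower) and of AACS, which activates acetoacetate (1.43-fold lower). The other 5 lower genes, HMGCS1, IDI1, SQLE, NSDHL and INSIG1, were 1.15 to 1.29-fold lower, and PMVK was higher by 0.35 on the log2 scale. The median of the 8 log2 differences was -0.27, against 0.01 over all named genes. In the limma fit over all 14883 named genes, 1 member was higher (PMVK) and 6 were lower at an adjusted p of 0.05, and INSIG1 did not pass. That fit called 9.78% of all named genes higher and 7.19% lower (57.6% of its calls higher, and 47.7% after cyclic loess). In the array values, all 3 of shBRG1 lay below all 3 of NSC for 7 members, as for 15.3% of all named genes, and above them for PMVK, as for 20.3%. Since the members were chosen on this contrast, these calls are no test of them. Nothing is read from any count of members called, here or below. With any 1 array left out the count of members called fell to 3 (without shBRG1 replicate 3 or NSC replicate 2) or 4 (without shBRG1 replicate 1 or 2, or NSC replicate 1 or 3), and it was 5 after centring each array on its median. PMVK was not among those called without shBRG1 replicate 3, NSC replicate 2 or NSC replicate 3.

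**Figure D1:**
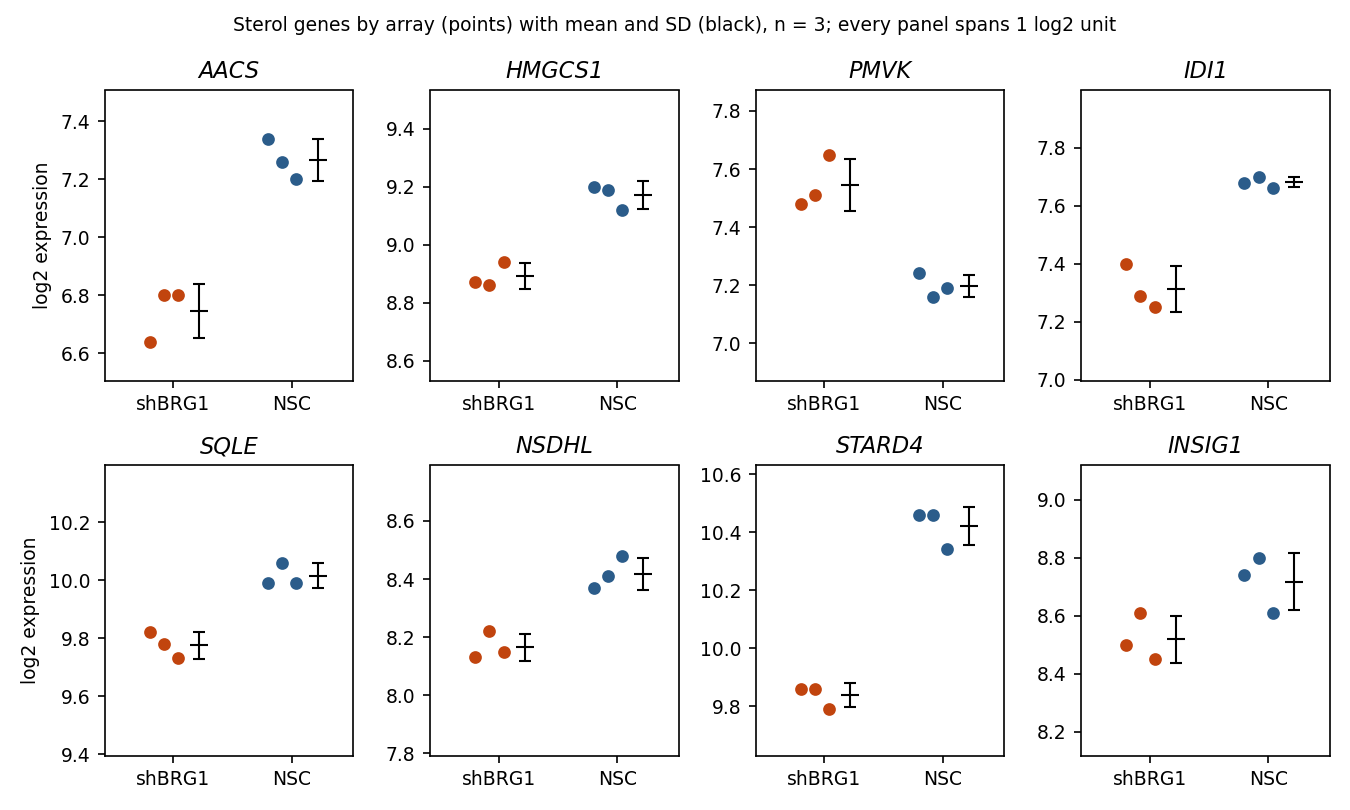
Log2 expression of the 8 sterol genes on each of 6 arrays, with the group mean and SD (n = 3 each) beside the points. Each panel has its own range of 1 log2 unit, shBRG1 left and NSC right. PMVK is the gene with higher values in shBRG1 (7.48 to 7.65, against 7.16 to 7.24 in NSC), and in INSIG1 the groups meet at 8.61.

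The letters upstream of 5 of these genes are shown as context for where transcription starts. They are the lower genes with the largest differences (STARD4, AACS), the one higher gene (PMVK), the enzyme that makes HMG-CoA (HMGCS1) and the gene with most CCAAT matches in a single window (NSDHL). The sequences are those of RefSeq (GRCh38.p14) for the 250 bases before an annotated start, 5′ to 3′ on the strand of the gene, and capitals mark CCAAT or its reverse ATTGG, the core of the NF-Y box.
AACS, chr12:125065185-125065434, plus strand: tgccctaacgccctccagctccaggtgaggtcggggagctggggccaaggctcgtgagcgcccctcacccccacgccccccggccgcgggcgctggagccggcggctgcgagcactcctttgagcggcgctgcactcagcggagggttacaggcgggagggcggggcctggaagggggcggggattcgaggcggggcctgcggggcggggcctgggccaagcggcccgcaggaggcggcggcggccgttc
HMGCS1, chr5:43313413-43313662, minus strand: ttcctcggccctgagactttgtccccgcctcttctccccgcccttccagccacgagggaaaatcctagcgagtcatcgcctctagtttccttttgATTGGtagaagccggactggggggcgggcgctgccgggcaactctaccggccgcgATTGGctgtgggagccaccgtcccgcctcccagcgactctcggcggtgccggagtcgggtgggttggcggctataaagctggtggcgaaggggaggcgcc
PMVK, chr1:154936720-154936969, minus strand: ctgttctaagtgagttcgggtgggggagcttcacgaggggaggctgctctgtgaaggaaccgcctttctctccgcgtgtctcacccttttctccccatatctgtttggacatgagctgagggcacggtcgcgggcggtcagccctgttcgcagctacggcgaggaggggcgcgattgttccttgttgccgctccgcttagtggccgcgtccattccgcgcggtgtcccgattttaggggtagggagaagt
NSDHL, chrX:152830813-152831062, plus strand: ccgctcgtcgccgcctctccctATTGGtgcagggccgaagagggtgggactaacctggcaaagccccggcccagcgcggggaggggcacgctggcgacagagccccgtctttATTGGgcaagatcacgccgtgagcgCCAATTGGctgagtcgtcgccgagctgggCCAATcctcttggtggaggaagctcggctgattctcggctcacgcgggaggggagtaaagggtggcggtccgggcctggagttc
STARD4, chr5:111512536-111512785, minus strand: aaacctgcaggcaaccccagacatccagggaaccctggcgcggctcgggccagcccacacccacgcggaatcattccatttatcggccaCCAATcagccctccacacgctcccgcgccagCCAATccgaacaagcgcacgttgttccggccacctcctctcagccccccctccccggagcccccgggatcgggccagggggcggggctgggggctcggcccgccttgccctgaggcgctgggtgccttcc
The table of starts held 7 of the 8 members with 10 windows, SQLE being the other. CCAAT, searched on both strands, occurred upstream of 5 members (HMGCS1, IDI1, NSDHL, STARD4 and INSIG1). It stood in 6 of the 10 windows of all 7, against 32.0% of all 35116 windows of this length. IDI1 held it in 2 of its 3 windows, and HMGCS1 in 1 of 2, the one printed. NSDHL had 5 matches in 1 window, of which 1 pair overlaps. The windows of AACS and PMVK had none of these letters. GGGCGG, the core of Sp1 boxes, occurred in 9 of the 10 windows, the one of NSDHL being the exception, against 42.6% of all windows, and CACGTG, an E-box, in 1 of the 10, that of INSIG1, against 6.34%. TCACNCCAC, one spelling of the sterol regulatory element, occurred in 0 of the 10 windows and in 0.883% of all windows. These matches describe letters in a short window and are not measured sites. All motifs were searched on both strands, and matches of different motifs can share bases.

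AACS, the cytosolic acetoacetyl-CoA synthetase, turns the ketone body acetoacetate into acetoacetyl-CoA for lipid synthesis. Its log2 levels were 6.64, 6.80 and 6.80 in shBRG1, against 7.34, 7.26 and 7.20 in NSC. Every shBRG1 value lay at least 0.40 below the lowest NSC value. The means were 6.75 ± 0.09 in shBRG1 and 7.27 ± 0.07 in NSC (SD, n = 3 each), a log2 difference of -0.52 (SE 0.08). One AACS pseudogene is annotated, and whether its transcripts reach this probe set was not tested.

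HMGCS1, the cytosolic HMG-CoA synthase, joins acetoacetyl-CoA to a further acetyl-CoA. It stood at 8.87, 8.86 and 8.94 in shBRG1, against 9.20, 9.19 and 9.12 in NSC on the log2 scale. The groups were separated by 0.17, which is more than the range within either group (0.08 in shBRG1 and 0.09 in NSC). The difference of the means was -0.28 (SE 0.07).

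PMVK, phosphomevalonate kinase, adds the second phosphate to mevalonate and was the only member higher in shBRG1. Its log2 levels were 7.48, 7.51 and 7.65 in shBRG1, against 7.24, 7.16 and 7.19 in NSC. The shBRG1 values were all higher, and replicate 3 stood farthest from NSC. The means were 7.54 ± 0.09 in shBRG1 and 7.20 ± 0.04 in NSC (SD, n = 3 each), a log2 difference of 0.35 (SE 0.07).

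IDI1, isopentenyl diphosphate isomerase, interconverts the isoprene building blocks made from mevalonate. Its log2 levels were 7.40, 7.29 and 7.25 in shBRG1, against 7.68, 7.70 and 7.66 in NSC, a log2 difference of -0.37 (SE 0.07). The shBRG1 arrays spread more (range 0.15) than the NSC arrays (range 0.04), and the groups lay 0.26 apart. RefSeq lists 3 IDI1 pseudogenes, and their part in the signal was not tested.

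SQLE, squalene epoxidase, puts oxygen onto squalene in a rate-controlling step of the late path. It stood at 9.82, 9.78 and 9.73 in shBRG1, against 9.99, 10.06 and 9.99 in NSC on the log2 scale, a difference of -0.24 (SE 0.07). The groups lay 0.17 apart, about as far as for HMGCS1.

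NSDHL, a sterol dehydrogenase, takes part in removing the methyl groups of lanosterol. Its log2 levels were 8.13, 8.22 and 8.15 in shBRG1, against 8.37, 8.41 and 8.48 in NSC, and the difference was -0.25 (SE 0.07). All NSC values were higher, by 0.15 at the nearest pair. In NSDHL, NSC replicate 3 was the highest control array, whereas for 6 of the 8 members that array was the lowest of the 3 controls.

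STARD4 encodes a soluble carrier that moves cholesterol between membranes and can deliver it to the endoplasmic reticulum. Its log2 levels were 9.86, 9.86 and 9.79 in shBRG1, against 10.46, 10.46 and 10.34 in NSC. The gap of 0.48 between the groups was the widest among the members. The means were 9.84 ± 0.04 in shBRG1 and 10.42 ± 0.07 in NSC (SD, n = 3 each), a log2 difference of -0.58 (SE 0.07).

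INSIG1 encodes the protein that retains SCAP in the endoplasmic reticulum when sterols are high. It had the smallest difference of the members, -0.20 (SE 0.08), with log2 levels of 8.50, 8.61 and 8.45 in shBRG1, against 8.74, 8.80 and 8.61 in NSC. The highest shBRG1 and the lowest NSC value are equal at 2 decimals, so the groups touch.

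**Figure D2:**
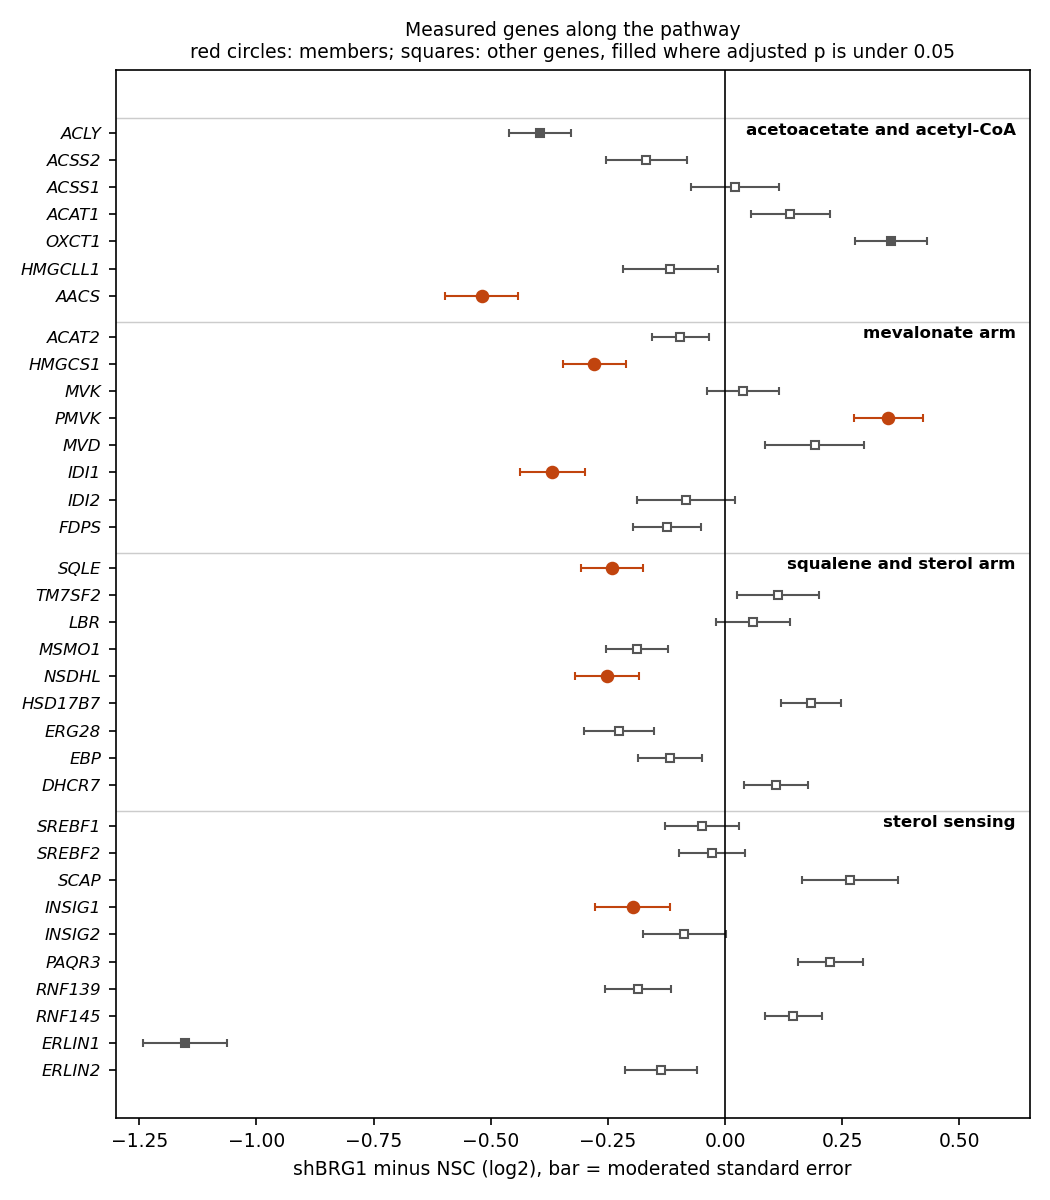
Log2 difference, shBRG1 minus NSC, of each measured gene in 4 gene lists, ordered along the path from top to bottom within each list, with the moderated standard error as bar. Red circles are 7 of the 8 members, all but STARD4, which belongs to transport, and squares are other genes, filled where they passed an adjusted p of 0.05. ERLIN1 lies farthest left at -1.15, and the open squares of the mevalonate and sterol arms lie between -0.23 and 0.19.

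The other enzymes of the same path, which are no members, lay on both sides of 0. None of those measured was called in the fit of the deposited values. The members were chosen on this contrast, so these enzymes are what that choice left, and nothing is read from the absence of calls. In the mevalonate arm, 5 of 6 other enzymes were measured and 0 passed an adjusted p of 0.05 in limma (0 at an unadjusted p under 0.05, and 0 with trend and robust options). Over all 14883 named genes, 17.0% passed, 4528 had an unadjusted p under 0.05, and 3306 passed with trend and robust options. MVD, which makes isopentenyl diphosphate, differed by 0.19 (adjusted p = 0.28), farnesyl diphosphate synthase FDPS by -0.12 (0.30), the thiolase ACAT2 by -0.10 (0.35) and IDI2, a paralog of IDI1, by -0.08 (0.66). ACAT2 had very tight groups, with 9.41, 9.42 and 9.42 in shBRG1 and 9.53, 9.50 and 9.51 in NSC. From squalene to cholesterol, 7 of 12 other enzymes were measured and likewise 0 passed (3 at an unadjusted p under 0.05, and 2 with trend and robust options). Those nearest the threshold were ERG28, a scaffold of the methyl-removing enzymes (-0.23, adjusted p = 0.078), HSD17B7 (0.18, 0.097) and MSMO1, the methylsterol monooxygenase (-0.19, 0.097), followed by the isomerase EBP (-0.12, 0.30). ERG28 and MSMO1 passed after cyclic loess (adjusted p = 0.027 and 0.042), with dim genes left out (0.023 and 0.027) and with trend and robust options (0.0035 and 0.0031). IDI2 (mean log2 level 3.09) and HSD17B7 (4.01) were dim, below the median gene (5.09). MSMO1 and NSDHL act in the same demethylation sequence.

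Of the genes that sense sterols, the transcription factors themselves were not called. SREBF2, which encodes SREBP2, stood at 8.64, 8.69 and 8.63 in shBRG1 and 8.75, 8.59 and 8.69 in NSC, a difference of -0.03 (SE 0.07, adjusted p = 0.84) that turned to 0.0082 without NSC replicate 1. SREBF1 differed by -0.05 (SE 0.08, adjusted p = 0.73), and SCAP by 0.27 with overlapping groups (SE 0.10, adjusted p = 0.12). INSIG2, the paralog of INSIG1, differed by -0.09 (SE 0.09, adjusted p = 0.58). The Golgi anchor PAQR3 (0.22, adjusted p = 0.067) and the ubiquitin ligase RNF139 (-0.19, adjusted p = 0.12) did not pass either. Among the 9 measured of 13 listed genes, ERLIN1 was the 1 that fell, and 0 rose, against 7.19% lower and 9.78% higher over all named genes. ERLIN1, a protein of cholesterol-rich domains of the endoplasmic reticulum known to restrain SREBP activation, stood at 7.73, 8.01 and 7.97 in shBRG1, against 9.07, 9.02 and 9.08 in NSC. It was 2.22-fold lower (log2 difference -1.15, SE 0.09, adjusted p = 4.3e-04), and it passed under all 12 alternatives tried.

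Of 6 other measured genes of acetoacetate and acetyl-CoA use, 1 fell (ACLY) and 1 rose (OXCT1), against 7.19% lower and 9.78% higher over all named genes. ACLY, which cleaves citrate into the cytosolic acetyl-CoA from which sterols and fatty acids are made, fell to 10.91, 10.99 and 10.97 in shBRG1, against 11.40, 11.32 and 11.33 in NSC (log2 difference -0.40, SE 0.07, adjusted p = 0.0069). OXCT1, the mitochondrial enzyme that commits acetoacetate to oxidation, rose to 9.51, 9.59 and 9.46 in shBRG1, against 9.07, 9.26 and 9.17 in NSC (0.35, SE 0.08, adjusted p = 0.020). The OXCT1 call was lost without shBRG1 replicate 1 or 2 or NSC replicate 1 or 3 (adjusted p up to 0.065). ACSS2 (-0.17, adjusted p = 0.24) and the mitochondrial thiolase ACAT1 (0.14, adjusted p = 0.32) did not pass.

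Around the members, 62 of 102 other listed sterol and lipid genes were measured. Of these 7 rose and 7 fell, 22.6% in all, against 17.0% of all named genes, and their median difference was -0.05. The lists were made with earlier results of these data known, so nothing is read from this share. After cyclic loess 5 rose and 11 fell, so that 31.2% of the calls were higher in place of 50%. Fatty acid synthesis held most of the falls, with 4 lower and 1 higher among 17 measured, against 7.19% lower and 9.78% higher over all named genes. SCD, the desaturase of stearoyl-CoA, fell most (-0.60, SE 0.07, adjusted p = 0.0018), with 10.39, 10.31 and 10.25 in shBRG1, against 10.93, 10.89 and 10.94 in NSC. Fatty acid synthase FASN (-0.47, adjusted p = 0.0043) and the phosphatidate phosphatase LPIN1 (-0.47, adjusted p = 0.0084) fell too, and these 3 genes passed under all 12 alternatives. ACSL4 (-0.27, adjusted p = 0.046), named after its value was seen, fell, and the elongase ELOVL5 (0.24, adjusted p = 0.042) rose. ACSL4 lost its call without each array in turn except NSC replicate 3, and ELOVL5 without each of the 6 arrays in turn (adjusted p up to 0.13 for ACSL4 and 0.12 for ELOVL5), and both lost it after centring.

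Genes of uptake and transport, STARD4 aside, went both ways. GRAMD1A, one of the Aster proteins that carry cholesterol from the plasma membrane to the endoplasmic reticulum, rose to 7.72, 7.85 and 7.55 in shBRG1, against 7.12, 7.03 and 7.22 in NSC (0.58, SE 0.10, adjusted p = 0.0068). Its paralog GRAMD1B fell (-0.30, SE 0.08, adjusted p = 0.040), with 8.48, 8.61 and 8.56 in shBRG1, against 8.85, 8.75 and 8.94 in NSC. TMEM97, which binds the lysosomal cholesterol exporter NPC1, rose (0.27, adjusted p = 0.049), and STARD3 did not pass (0.31, adjusted p = 0.060). In this list 2 of 10 measured genes rose and 1 fell, against 9.78% higher and 7.19% lower over all named genes. GRAMD1B lost its call without each array in turn except NSC replicate 2 (adjusted p up to 0.12), and TMEM97 without each of the 6 (up to 0.14), and both lost it after centring. TMEM97 and ELOVL5 also lost theirs after cyclic loess. With the replicate block GRAMD1B (adjusted p = 0.0996), TMEM97 (0.124), ACSL4 (0.115) and ELOVL5 (0.128) lost their calls too.

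NCEH1, which frees cholesterol from its esters, rose to 7.21, 7.42 and 7.23 in shBRG1, against 6.76, 6.57 and 6.72 in NSC (0.61, SE 0.09, adjusted p = 0.0042). It was the 1 gene called among 5 measured of efflux, storage and oxidation, against 9.78% higher and 7.19% lower over all named genes. The esterifying enzymes SOAT1 (0.19, adjusted p = 0.12) and SOAT2 (-0.39, adjusted p = 0.079) and the apolipoprotein APOE (-0.05, adjusted p = 0.70) did not pass. SOAT2 and APOE were dim, below the median gene. Of 13 genes of the isoprenoid branches only 3 were measured. Of these 2 rose and 0 fell, against 9.78% higher and 7.19% lower over all named genes. TRIT1, which adds an isopentenyl group to tRNA, rose (0.45, adjusted p = 0.012), as did DHDDS, a subunit of the enzyme that builds the dolichol chain (0.33, adjusted p = 0.021). NUS1, the partner subunit of DHDDS, did not pass (0.17, adjusted p = 0.15). DHDDS lost its call without shBRG1 replicate 2 or 3 or NSC replicate 2 or 3 (adjusted p up to 0.066). It also lost it with the replicate block (adjusted p = 0.073).

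**Figure D3:**
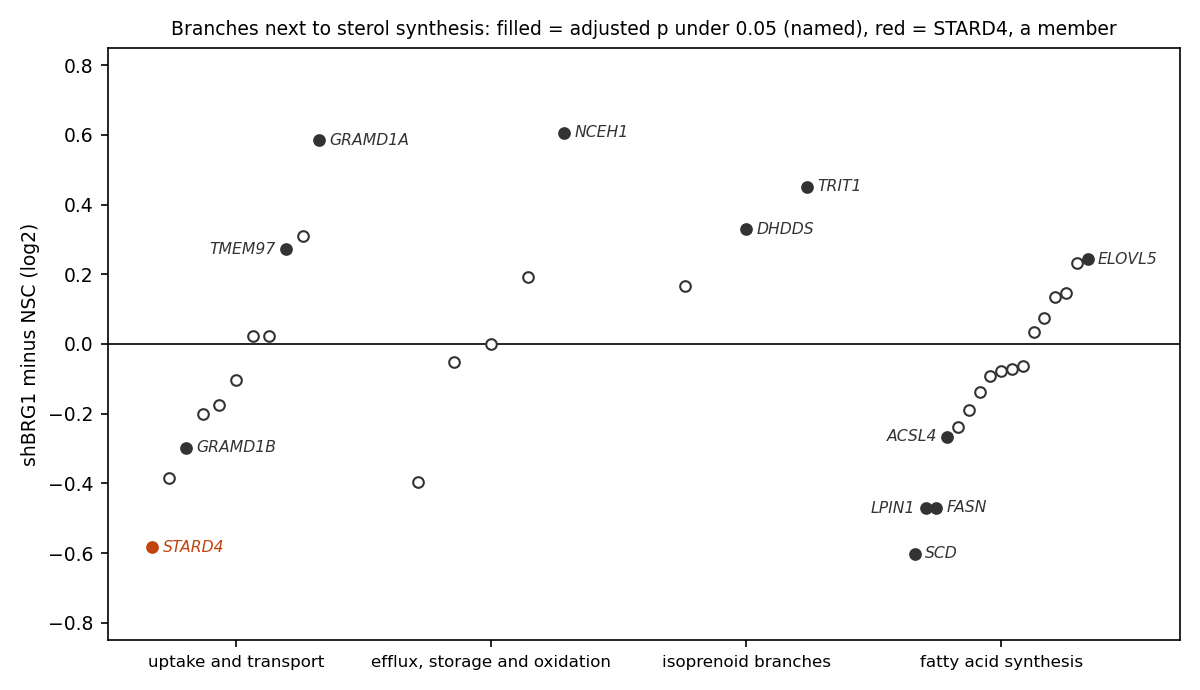
Log2 difference, shBRG1 minus NSC, of each measured gene in 4 neighbouring gene lists, sorted within a list. Filled black points passed an adjusted p of 0.05 and are named, open points did not, and STARD4 (red, -0.58) is a member shown without a test. SCD (-0.60) and NCEH1 (0.61) lie at the ends.

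Likeness of profiles was measured as the root mean square difference over the 6 arrays after subtracting each gene's mean, among the 70 measured genes of all lists. The profile nearest to HMGCS1 was that of ACSL4 (0.035 log2 units), and RNF139 was nearest to both SQLE (0.039) and INSIG1 (0.039). STARD4 lay nearest to SCD (0.058), AACS to FASN (0.067), NSDHL to GRAMD1B (0.054), IDI1 to SQLE (0.070) and PMVK to DHDDS (0.068). The 6 points fall into the 2 groups on whose difference the members were chosen, so these distances are a description.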

How the data were processed

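Total RNA of 6 SK-N-BE(2) samples was hybridised to single-colour Affymetrix arrays, per the labels' protocols. As deposited, each probe set has 1 log2 value per sample. The submitters' processing notes list RMA, oligo 1.27, limma 3.19 and R 3.1.0. RMA gives all arrays the same overall distribution, which hides any change common to every gene. The log2 scale was read from the range, 1.19 to 13.8. Background correction and scan batches could not be varied on these values. No source used here gives the genome build of the probes.

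Of 52299 probe sets, 15828 had 1 symbol, 0 several and 36471 none in the platform annotation, and all 15828 matched a gene identifier of GRCh38.p14. The brightest probe set per gene (mean of 6 arrays) left 14883 genes and set 945 probe sets aside. Levels of different genes are not ranked, and the median gene serves only to mark dim probe sets. Each gene was fitted with limma 3.58.1 in R 4.3.3 (lmFit, eBayes, two-sided), with Benjamini-Hochberg adjustment across the 14883 genes and a threshold of 0.05. Differences are shBRG1 minus NSC with the moderated standard error, whose median was 0.09. Precision is limited by having 3 arrays per group.

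The members and the lists of 102 other genes were chosen with earlier results of these data known. The text names all members, up to 4 genes per list with the smallest p, and SREBF1, SREBF2, SCAP, INSIG2, ACAT2 and ACLY. The nearest profile of each member is named too, and ACSL4 and ERLIN2 were named after their values were seen. Some listed genes are not reported here. Alternatives were centring, cyclic loess, a filter on dim genes, averaged probe sets, trend and robust options, a block for replicate number, each array omitted in turn, and an adjusted p of 0.01. Simulated data with known changes were used to test the fit. Plots came from matplotlib 3.10.9 (Python 3.11.15).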

Additional observations from a re-analysis of the deposited data

How the results depend on the processing

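The direction of all 8 members was the same under all 12 alternatives that give a difference, but most of these could not change it. The dim filter, averaged probe sets, trend and robust options and the replicate block leave a member's difference as it was. Omitting 1 array cannot reverse a gene whose groups do not overlap, as held for all 8. Only centring and cyclic loess could have changed a direction, and the members were chosen on this difference. Cyclic loess gave all 8 a lower value. For 5 the shift was more than the pooled within-group SD and less than the SE (HMGCS1 -0.34, IDI1 -0.43, SQLE -0.30, NSDHL -0.32 and STARD4 -0.64). For PMVK (0.28), INSIG1 (-0.26) and AACS (-0.58) it was less than that SD. The count of 2525 named genes past the threshold (1455 higher, 1070 lower) ranged over 1604 to 1840 with 1 array left out (840 to 1055 higher, 694 to 859 lower) and was 1086 (563 higher, 523 lower) at an adjusted p of 0.01. Of the 62 other listed genes, 14 passed (7 higher, 7 lower). With 1 array left out 8 to 10 passed (3 to 4 higher, 5 to 6 lower), and at an adjusted p of 0.01 only 7 (2 higher). With dim genes left out 25 passed (13 higher, 12 lower, of 47 tested), and with trend and robust options 22 (12 higher). Calls over all named genes rose too under these 2 settings. They came to 3201 (1977 higher) after 7441 dim genes were left out, and to 3306 (1984 higher) with trend and robust options. After cyclic loess 11 of the listed genes were lower, and 1329 of all named genes. With the replicate block 1608 named genes passed (870 higher) and 9 listed genes (4 higher), and 3 members were called. Deviations of same-numbered arrays correlated at -0.04, -0.14 and -0.03, so no likeness by replicate number was seen. Scatter of the arrays could hide one, so this does not settle whether the cultures were paired. Near 0, 2 values changed sign, IDI2 (0.021 without shBRG1 replicate 3, range -0.14 to 0.021 with 1 array left out) and SREBF2 (0.0082 without NSC replicate 1, range -0.071 to 0.0082), and neither was called. Why the counts differ with dim genes left out or under other scalings was not tested. With 3 arrays per group, differences near the median standard error of 0.09 cannot be resolved, and larger ones can be missed. Simulated data held 100 changed genes among 14883, whereas the real fit called 2525, so recovery there need not equal recovery here. In the simulated data the fit recovered 47 of 100 changes of 0.5 log2 units and 88 of 100 changes of 1 log2 unit. It made 10 false calls at each size. A gene that was not called may therefore still differ.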

Other observations

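Pairs of related genes were set against each other within each array, after their values were seen and with no test. GRAMD1A minus GRAMD1B, the Aster paralogs, was -0.75, -0.76 and -1.01 in shBRG1 and -1.73, -1.72 and -1.72 in NSC, a shift of 0.88 on the log2 scale. ERLIN1 minus ERLIN2, which form a complex in the endoplasmic reticulum, was 1.23, 1.35 and 1.44 in shBRG1 and 2.34, 2.27 and 2.46 in NSC, a shift of -1.02. OXCT1 minus AACS, the mitochondrial and the cytosolic enzyme that activate acetoacetate, was 2.87, 2.79 and 2.66 in shBRG1 and 1.73, 2.00 and 1.98 in NSC, a shift of 0.87. The groups did not overlap in any of these 3 pairs, and nothing is read from that. All shBRG1 values lay above NSC for GRAMD1A and OXCT1, and below NSC for GRAMD1B and AACS. Their pairs therefore could not overlap. ERLIN1 had no overlap by itself, and AACS is a member chosen on this contrast. These shifts show unequal change of the probe sets and say nothing of their relative abundance.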
